A study of Caenorhabditis elegans with 3 samples.

Results

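The genes described here are the Hedgehog-related and Patched-related genes of Caenorhabditis elegans, 88 of 19973 protein-coding nuclear genes. They were taken by name from the Ensembl annotation: 10 warthog genes (wrt), 16 groundhog genes (grd), 31 ground-like genes (grl), qua-1 and hog-1, which together form 59 ligand-like genes, and 24 patched-related genes (ptr) with ptc-1, ptc-3, ptd-2, daf-6 and che-14, which form 29 receptor-like genes. Protein names in RefSeq were compared with these names. A Ground-like or groundhog product was named for 47 of the 59 ligand-like genes, a warthog product for 10, a HintN domain for hog-1 and no domain for qua-1, while a sterol-sensing domain or a Patched protein was named for all 29 receptor-like genes.

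The binding of NHR-25, a nuclear hormone receptor of the FTZ-F1 family known for roles in the epidermis and in molting, was mapped by chromatin immunoprecipitation and sequencing in whole L2 larvae of mixed sex. All animals were of strain OP33, which carries the unc-119(ed3) mutation and the integrated transgene wgIs33, from which NHR-25 is made with GFP and FLAG fused C-terminally. The 3 biological replicates formed 1 group of this single genotype, and the source of the worms and the fragmentation were labelled differently for replicate 3. A list of 30000 regions was deposited for each replicate, and 4548 regions passed a threshold on reproducibility between replicates (the optimal list), 4524 of them on nuclear chromosomes. Sequencing depth is unknown, because region lists give no read counts, and the control that the regions were called against was not analysed here. Expression was not measured, and signal in whole larvae cannot be traced to a cell type.

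In insects and vertebrates, Hedgehog is a secreted protein whose carboxy-terminal Hint (Hog) domain cuts the precursor and attaches cholesterol to the signalling part, and Patched is its receptor, a membrane protein with a sterol-sensing domain. Worms lack a typical Hedgehog and a Smoothened protein. They have instead large families in which a Wart or Ground domain takes the place of the signalling part, with or without a Hint domain, and a correspondingly enlarged Patched family. In worms these families are known mainly from the epidermis, glia and other cells that face the cuticle, and from molting.

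The question was how often NHR-25 bound at these genes, and whether ligand-like and receptor-like genes differed. A gene was counted as bound when the summit of an optimal region, the position of its peak, lay between 2000 bp upstream of any of its transcript starts and its end. By this rule 12 of the 59 ligand-like genes were bound (20.3%, 95% Wilson interval 12 to 32.3%) and 8 of the 29 receptor-like genes (27.6%, 14.7 to 45.7%). Together these were 20 of 88 (22.7%, 15.2 to 32.5%), where 19.0% of all protein-coding genes were bound. The background lies inside each interval, so binding at these genes was not distinguishable from that at genes in general. Intervals cover counting error only and treat genes as independent, which neighbours that share a site are not.

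Bound genes were found in each of the wrt, grd, grl and ptr families, and were fewest for their number among the ground-like genes. Among warthog genes 3 of 10 were bound (wrt-1, wrt-3 and wrt-9) and among groundhog genes 5 of 16 (grd-3, grd-4, grd-10, grd-13 and grd-14). Of the ground-like genes 3 of 31 were bound (9.68%, Wilson interval 3.35 to 24.9%), namely grl-4, grl-17 and grl-21. The background over all protein-coding genes was 19.0%, but the ground-like windows were short, with a median of 3301 bp. Of all genes with windows under 4000 bp 14.1% were bound. On chromosome V, where many ground-like genes lie, 9.68% of genes with such windows were. The gene hog-1 was bound and qua-1, which is known for a role in molting, was not. Among patched-related genes 6 of 24 were bound (25%, 12 to 44.9%), namely ptr-6, ptr-8, ptr-12, ptr-13, ptr-14 and ptr-23, and both ptc-1 and ptc-3, the genes closest to Patched itself, were bound. The remaining receptor-like genes, ptd-2, daf-6 (known for shaping the channel of sensory glia) and che-14 (a relative of Dispatched, known for apical secretion), had no optimal summit. These family intervals overlap, and no test between families was made.

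The same count was made in each replicate from its 4548 regions of highest signal. Ligand-like genes with a summit among them numbered 10, 12 and 10 in replicates 1, 2 and 3 (18.1% ± 1.96, SD, n = 3), and receptor-like genes 7, 9 and 7 (26.4% ± 3.98). Over all protein-coding genes the share was 19.3%, 19.5% and 19.2%. The share of ligand-like genes was below that of receptor-like genes in 3 of 3 replicates, with a mean difference of -8.36 percentage points (SD 2.02). An exact two-sided sign-flip permutation test over the replicates gave p = 0.25, the smallest value that 3 replicates allow, so the difference could not pass a threshold in this design. The test asks only whether the same 2 gene lists give a difference of the same sign in repeat experiments. The genes counted were not the same in each replicate. Among receptor-like genes, ptr-6, ptr-13, ptr-14 and ptr-23 were counted in all 3. Without an optimal summit, ptr-4, ptr-11 and ptr-18 were counted in replicate 2 and ptr-22 in replicate 3. The test does not measure how far the difference depends on which genes happen to carry sites, for which only the wide Wilson intervals above are given.

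**Figure D1:**
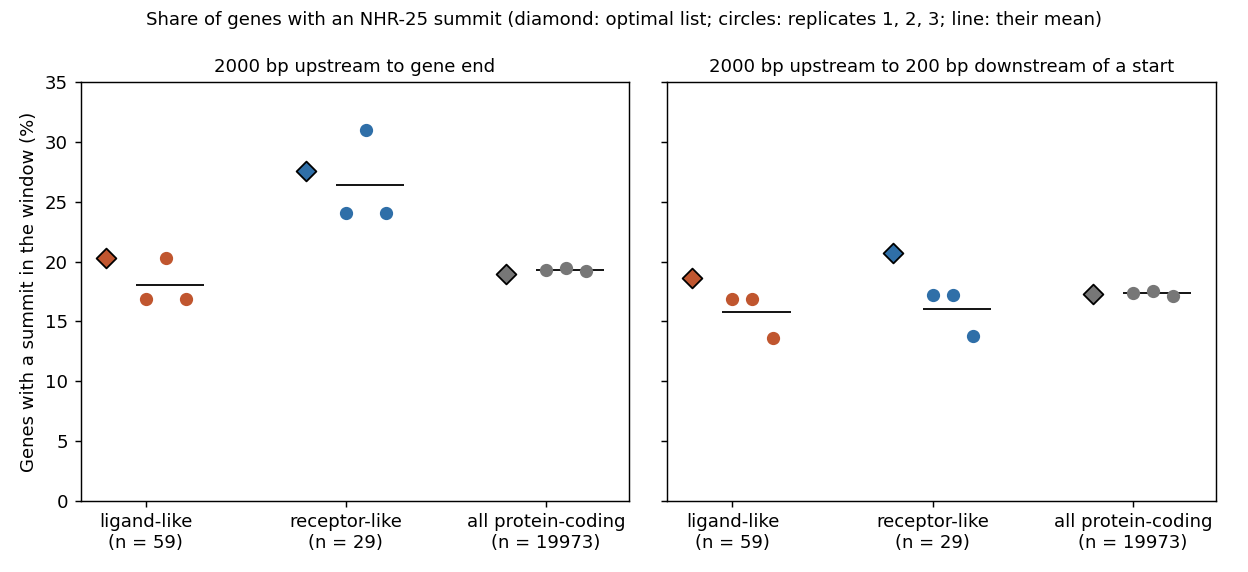
Share of genes (%, vertical axis) with a summit in the window from 2000 bp upstream to the gene end (left panel) and from 2000 bp upstream to 200 bp downstream of a start (right panel), for 59 ligand-like, 29 receptor-like and all 19973 protein-coding genes; diamonds stand for the optimal list, circles for replicates 1, 2 and 3 and lines for the replicates' mean. In the left panel receptor-like genes lie above ligand-like genes in each replicate, and in the right panel the replicates' means are 15.8%, 16.1% and 17.3%.

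Receptor-like genes are longer, and the window grows with the gene. The median window was 3784 bp for ligand-like genes, 8014 bp for receptor-like genes and 4024 bp over all protein-coding genes. Per 10 kb of window, ligand-like genes had 0.626 summits and receptor-like genes 0.466, in reverse order to the shares of bound genes, and all protein-coding genes had 0.487. A summit in the windows of 2 genes counts for both here, and in this way the 88 genes together had 0.546. With each summit counted once within a list, the values were 0.508 for ligand-like, 0.466 for receptor-like and 0.354 for all genes. In the families this removes only sharing between their own genes, but over all genes it removes sharing between any neighbours. The 0.354 is therefore lowered more and is not a like-for-like background. Among genes with a window under 4000 bp, 8 of 36 ligand-like genes and none of the receptor-like genes, which all have longer windows, stood beside a background of 14.1%. Between 4000 and 8000 bp, 3 of 20 ligand-like and 4 of 14 receptor-like genes were bound (background 20.9%), and from 8000 bp upwards 1 of 3 and 4 of 15 (background 33.0%). When the window ended 200 bp downstream of a start, and so no longer depended on gene length, 11 of 59 ligand-like and 6 of 29 receptor-like genes were bound (background 17.3%), and the share of ligand-like minus that of receptor-like genes was -2.05 points, beside -7.25 points in the full window. With the window starting 1000 bp upstream, 10 ligand-like and 5 receptor-like genes were bound (background 15.6%), and with 500 bp again 10 and 5 (background 13.5%). In the replicates, however, the mean difference with 1000 bp upstream was -7.15 points (SD 1.78). In promoters, replicates 1, 2 and 3 had 10, 10 and 8 ligand-like and 5, 5 and 4 receptor-like genes with a summit (background 17.4%, 17.5% and 17.1%). The mean difference was -0.273 points (SD 0.0337, exact sign-flip permutation p = 0.25). In promoters the 2 shares were thus nearly equal in each replicate. The small SD comes from these whole-gene counts and is not a measure of precision.

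By chromosome, the bound genes were spread unevenly. On chromosome V, which holds 33 of the 88 genes and 28 of the 59 ligand-like ones, only grl-17 was bound, where 13.1% of all genes on that chromosome were bound. Chromosome IV had 7 of 13 bound (background 18.1%) and chromosome II 6 of 11 (background 17.3%). On X the count was 4 of 14 (background 19.7%), on I 2 of 10 (background 23.9%) and on III 0 of 7 (background 27.2%). On chromosome V windows under 4000 bp were bound in 1 of 18 cases (background 9.68%) and longer ones in 0 of 15 (background 17.9%). Several of these genes lie side by side and can share a site: 15 of the 88 stand in 6 groups with gaps of at most 5000 bp. All of grd-13, grd-3 and grd-10 on IV and both grd-14 and grd-4 on X were bound, while none of grl-28, grl-29, grl-30 and grl-31, nor grl-8, grl-9, wrt-7 or wrt-8, all on V, was.

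**Figure D2:**
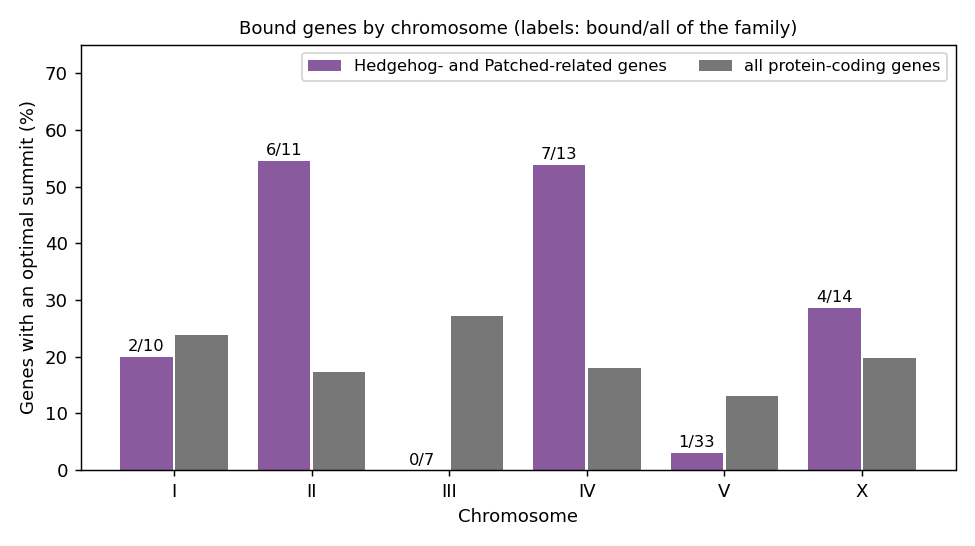
Percentage of genes with an optimal summit in the window (vertical axis) on each chromosome (horizontal axis), for the Hedgehog- and Patched-related genes (purple, with bound and total counts above the bar) and for all protein-coding genes (grey). Chromosome V holds the most genes of the families and 1 bound gene, while chromosomes II and IV have 6 of 11 and 7 of 13 bound.

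The bound genes were reached by 25 distinct sites, which made 28 pairs of a gene and a site. Signals of these sites, the values the authors' peak caller gave to the regions, ran from 109 to 604 with a median of 182, equal to the median of 182 over all nuclear optimal sites, and the lowest signal in the optimal list was 107. With only the stronger regions of the optimal list (ranks up to 2274), 6 ligand-like and 5 receptor-like genes were bound (background 11.5%). Those stronger regions included 11 of the 25 sites, or 44.0%, and 49.8% of all nuclear sites. The strongest of the 25 had optimal rank 252. These sites were therefore of ordinary strength for this factor. Median signals were 163 over the 13 ligand-like sites and 182 over the 12 receptor-like sites.

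The sequences around strong summits, those of ptr-23 and the 3' UTR site of grl-4 aside, are printed first, to show what DNA lay under the sites that the following values describe. Each runs along the plus strand of WBcel235 (ce11), as RefSeq gives it, up to 50 bp on either side of the summit, with annotated UTR bases left out. Capitals mark matches on either strand to the searched motifs, which are CAAGGTCA (the extended half-site of FTZ-F1 receptors), AGGTCA (the receptor half-site, which CAAGGTCA holds), GAGAGA (a simple repeat), CACGTG (an E-box), AACCGGTT (a Grainyhead-type site) and TGATAA (which contains the core read by GATA factors).
grl-17, chrV:13565396-13565496: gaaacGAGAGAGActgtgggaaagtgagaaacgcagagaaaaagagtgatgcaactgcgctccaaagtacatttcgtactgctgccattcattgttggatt
wrt-1 upstream, chrII:7529297-7529397: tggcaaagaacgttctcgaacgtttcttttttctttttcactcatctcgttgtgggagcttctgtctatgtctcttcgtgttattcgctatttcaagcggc
ptr-14, chrIV:10617237-10617337: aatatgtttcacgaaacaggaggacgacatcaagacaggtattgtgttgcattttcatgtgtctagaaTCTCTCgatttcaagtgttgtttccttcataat
grl-21, chrIV:10737275-10737375: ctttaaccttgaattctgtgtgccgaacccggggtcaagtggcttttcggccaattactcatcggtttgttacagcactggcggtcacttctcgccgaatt
ptr-8, chrII:10887229-10887329: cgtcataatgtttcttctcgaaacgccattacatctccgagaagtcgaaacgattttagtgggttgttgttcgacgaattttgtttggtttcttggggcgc
grl-4, chrIV:7311233-7311333: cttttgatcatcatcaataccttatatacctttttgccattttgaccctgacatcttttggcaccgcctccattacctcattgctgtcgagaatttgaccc
grd-3 and grd-10, chrIV:3439508-3439602: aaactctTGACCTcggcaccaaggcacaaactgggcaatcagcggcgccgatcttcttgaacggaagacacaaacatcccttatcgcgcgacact

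Among ligand-like genes, the strongest site belonged to the window of grl-17, which encodes a Ground-like protein (V, 13561973 to 13563941, minus strand). Its region (V, 13565265 to 13565599, intergenic) had a signal of 604 and stood 252nd in the optimal list, and the regions overlapping it ranked 335, 277 and 203 in replicates 1, 2 and 3, so it was strong in each. The summit lay 1505 bp upstream of the start of grl-17, but only 417 bp from that of slrp-1, the nearest start. At wrt-1, a warthog gene (II, 7530996 to 7533246, plus strand), the region at 7529116 to 7529488 had a signal of 498 and rank 403, with ranks of 215, 340 and 459 in the replicates. Its summit was 1649 bp upstream of wrt-1 and 296 bp from the start of ZK1290.5. Both of the strongest ligand-like sites thus stood nearer to a gene outside the families. A second site of wrt-1, in an intron 676 bp past the start (7531477 to 7531866), was weaker, with a signal of 143 and ranks of 4872, 3102 and 3946 in the replicates.

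The ground-like genes grl-21 and grl-4 had sites of their own. The region of grl-21 (IV, 10737178 to 10737434) had its summit 149 bp upstream of the gene, with a signal of 297 and ranks of 774, 1395 and 2125 in replicates 1, 2 and 3. All were among the strongest 4548 regions. At grl-4 (IV, 7309838 to 7310760, minus strand), a region 523 bp upstream (7311202 to 7311331) had a signal of 243 and ranks of 2755, 1004 and 1581. A further one with its summit in the 3' UTR (7309785 to 7310069) had a signal of 235 and ranks of 1895, 5426 and 942, beyond the strongest 4548 in replicate 2 only. For all 3 of these sites the grl gene had the nearest start.

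The groundhog genes grd-13, grd-3 and grd-10 follow each other on one strand within 3438312 to 3441841 of chromosome IV, each with a summit close to its start. That of grd-3 lay 103 bp upstream of the gene (region 3439450 to 3439725), with a signal of 223 and ranks of 2417, 1298 and 1061 in replicates 1, 2 and 3, and it also fell in the window of grd-10. A summit 15 bp inside grd-10, in its 5' UTR (3440891 to 3441080), had a signal of 152 and ranks of 4947, 1601 and 3256. The summit 42 bp upstream of grd-13 (3438075 to 3438464) had a signal of 147 and ranks of 1461, 4626 and 8886, and was among the strongest regions of replicate 1 only. It was also counted for grd-3. On X, the region 8499558 to 8499947 served both grd-14 (268 bp upstream) and grd-4 (1469 bp upstream), with a signal of 147 and ranks of 1689, 3191 and 4034. The 5 bound groundhog genes therefore rested on 4 sites.

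The other ligand-like sites were close to the threshold or varied between replicates. At wrt-3 (IV, 9473633 to 9477456, minus strand) the summit lay 48 bp upstream of the nearest start, with a signal of 163 and overlapping regions of rank 1816, 3456 and 17088, so replicate 3 stood apart at this site. In replicate 3 a region of rank 3606 had its summit in the window of wrt-3 without overlapping this site. At wrt-9 an intronic summit 2221 bp past the start (X, 1578663 to 1579052) had a signal of 119 and ranks of 5037, 5443 and 11484. At hog-1, a gene for a protein with a Hint domain, a summit 234 bp upstream (X, 5854302 to 5854691) had a signal of 111 and ranks of 6002, 8517 and 7256. Neither of the sites of wrt-9 and hog-1 was among the strongest 4548 regions of any replicate, although both were in the optimal list.

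**Figure D3:**
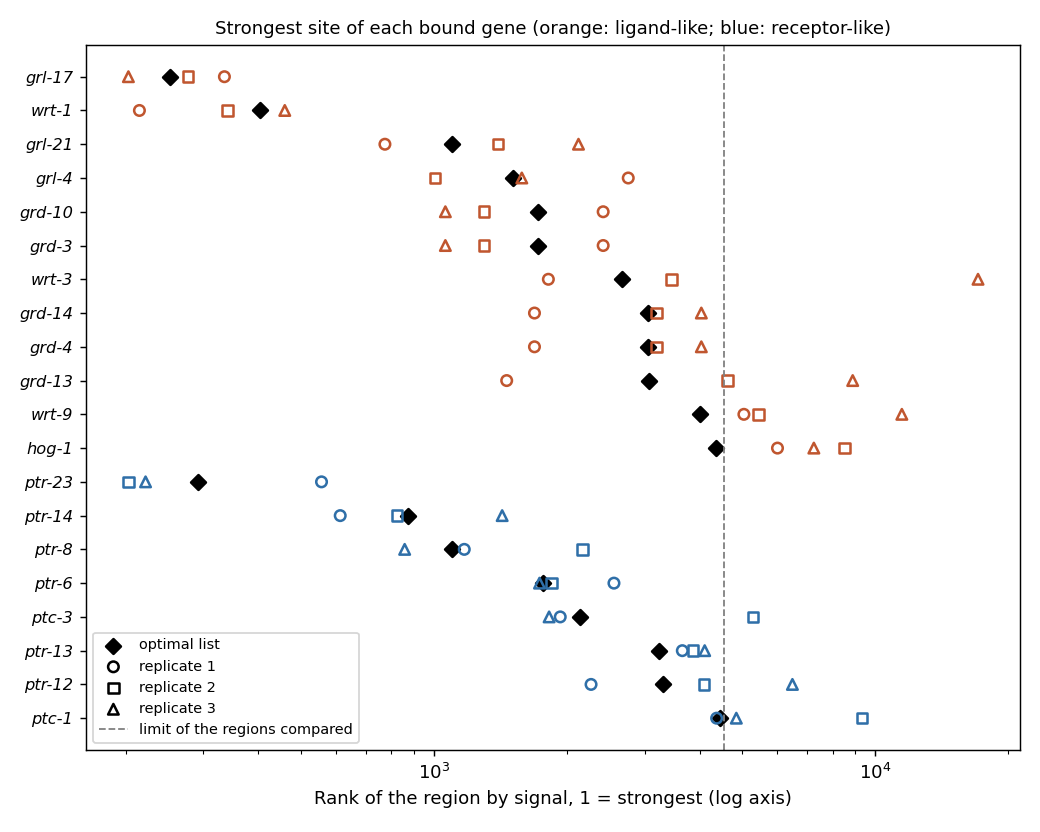
Rank by signal (horizontal log axis, 1 is the strongest) of the strongest site of each bound gene in the optimal list (filled diamonds) and of the strongest region overlapping it in replicates 1, 2 and 3 (open circles, squares and triangles), with ligand-like genes above in orange and receptor-like genes below in blue. The dashed line marks rank 4548, and the ranks of grl-17, wrt-1 and ptr-23 stay between 203 and 556 in the replicates, while wrt-3 reaches 17088 in replicate 3.

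Among receptor-like genes, the strongest site was that of ptr-23 (I, 14906792 to 14913083, plus strand), one of the Patched-related genes. The region at 14905137 to 14905544 had its summit 1435 bp upstream of the nearest start of ptr-23, with a signal of 569, optimal rank 292 and ranks of 556, 203 and 222 in replicates 1, 2 and 3. No other protein-coding gene had a nearer start. A second summit 462 bp upstream (14906135 to 14906524), in an exon of the non-coding RNA gene ZK270.5, had a signal of 182 and ranks of 3011, 1474 and 2286. Both were thus found in every replicate.

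The gene ptr-14 (IV, 10615427 to 10620964, plus strand) had 3 optimal summits, where 1.19% of all protein-coding genes had 3 or more, and no other gene of the families had as many. The strongest was in an intron, 1860 bp past the start (10617054 to 10617389), with a signal of 337 and ranks of 613, 825 and 1427. A summit 346 bp upstream (10614886 to 10615275) had a signal of 182 and ranks of 2299, 1685 and 5432. The weakest, in an intron 5178 bp past the start (10620410 to 10620799), had a signal of 115 and ranks of 4535, 18960 and 3373, so replicate 2 stood apart, and the start of R09H10.7 was nearer to it. In all 7 of the 88 genes had 2 or more summits, 4 ligand-like and 3 receptor-like (background 4.18%).

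At ptr-8 (II, 10889279 to 10893277, plus strand) the summit (region 10887157 to 10887417) lay exactly 2000 bp upstream, on the limit of the window, and F44F4.3 had a nearer start at 1361 bp. Its signal was 297, with overlapping regions of rank 1171, 2170 and 858. In replicate 1 the strongest region with its summit in the window of ptr-8 ranked 5210, so the gene was not counted in that replicate. With optimal summits counted 1 bp lower, 7 receptor-like genes were bound. The difference of -7.25 points between the shares of ligand-like and receptor-like genes then became -3.80 points. The summit of ptr-6 (II, 5242442 to 5246837, minus strand) stood 129 bp upstream (5246847 to 5247025), with a signal of 220 and ranks of 2557, 1847 and 1734, close to each other in the 3 replicates. Just outside a window were summits 72 bp beyond that of ptr-11 (signal 134), 222 bp beyond that of daf-6 (245) and 283 bp beyond that of wrt-5 (829).

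Both homologues of Patched had a site upstream. That of ptc-3, known to be needed for growth and molting (II, 2845412 to 2852593, minus strand), lay 1353 bp upstream of the nearest start (2853879 to 2854025), with a signal of 192 and ranks of 1932, 5280 and 1823, beyond the strongest 4548 in replicate 2 only. Further upstream, outside the window, ptc-3 also had the nearest start to summits at 2417 bp and 5158 bp, with signals of 227 and 246, each supported by all 3 replicates. The site of ptc-1, known for cytokinesis in the germline (II, 7893222 to 7900515, plus strand), lay 1119 bp upstream (7891908 to 7892297), in an exon of the non-coding RNA gene T01H3.7. Its signal of 109 was close to the lowest in the list, and its ranks were 4369, 9323 and 4842.

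The last receptor-like genes were bound inside the gene. At ptr-13 (II, 11156589 to 11162481, minus strand) an intronic summit 4571 bp past the start, also in an exon of the non-coding RNA gene K07C10.5, had a signal of 141 and ranks of 3653, 3867 and 4105. At ptr-12 (I, 2587527 to 2595294, minus strand) a summit in an intron 3491 bp past the start had a signal of 139 and ranks of 2269, 4091 and 6488. A summit in a coding exon 7585 bp past the start of ptr-12 also had a signal of 139, with ranks of 2980, 3197 and 7723, and the start of fbp-1 was nearer to it. Both sites of ptr-12 were beyond the strongest 4548 regions in replicate 3 alone.

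**Figure D4:**
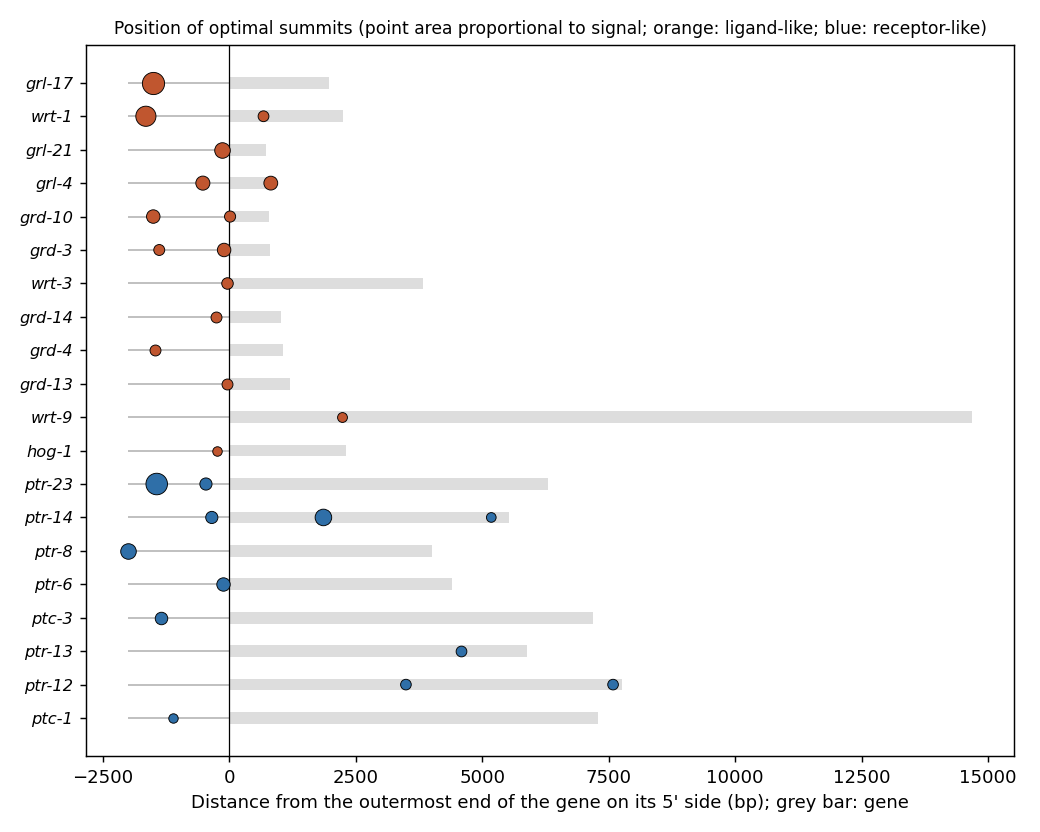
Position of each optimal summit (points, with area in proportion to signal) relative to the gene end on the 5' side (0 on the horizontal axis, in bp), for 12 ligand-like genes above in orange and 8 receptor-like genes below in blue; grey bars show the gene and thin lines the 2000 bp upstream. The 3 largest points, of grl-17, wrt-1 and ptr-23, lie 1505, 1649 and 1435 bp upstream, and that of ptr-8 lies on the limit of the window.

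Taken over all 28 pairs, 19 summits were upstream of the gene (67.9%) and 9 were inside it (32.1%), against 68.7% and 31.3% of 5079 pairs over all protein-coding genes. The gene of the family had the nearest start for 20 pairs (71.4%), against 69.6% over all genes. Inside the gene lay 4 of 16 ligand-like and 5 of 12 receptor-like summits. In position these sites were like those of other genes. With a region counted when any of its bases fell in the window, 12 ligand-like and 9 receptor-like genes were bound (background 20.1%). Counted only where the summit was nearest to the gene's own start, 10 ligand-like and 7 receptor-like genes were bound (background 13.6%).

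Support was counted as overlap with the strongest 4548 regions of a replicate. Of the 25 sites 12 (48%) had it in all 3 replicates, 9 (36.0%) in exactly 2, 2 in 1 and 2 in none, where 55.3%, 26.3%, 16.2% and 2.23% of all nuclear optimal sites did. The 25 sites were beyond the strongest 4548 regions in 4, 7 and 8 cases in replicates 1, 2 and 3. Their median ranks were 2299, 3102 and 3256, against 2331, 2342 and 2340 for all nuclear sites, so they ranked lower in replicates 2 and 3 than in replicate 1. Replicate 3 carries other labels, but replicate 2 carries those of replicate 1, and whether the labels play a part was not tested. With sites supported by all 3 replicates alone, 8 ligand-like and 5 receptor-like genes were bound, 13 of 88 (background 12%). With support required in replicates 2 and 3 alone (without replicate 1), the counts were 8 and 5, together 13 (background 13.2%). With overlap of 50% in each direction in all 3 replicates, 4 and 3 remained, 7 of 88 (background 7.75%).

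The 68 genes without an optimal summit were looked up in the list of 30000 regions called on the pooled replicates. Of 47 ligand-like genes 17 had a summit there in their window, and of 21 receptor-like genes 15 had one, where 32.3% of all genes without an optimal summit did. With windows from 4000 to 8000 bp this was 7 of 17 ligand-like and 6 of 10 receptor-like genes (background 38.1%), and from 8000 bp upwards 0 of 2 and 9 of 11 (background 56%). With windows under 4000 bp it was 10 of 28 ligand-like genes (background 23.6%). None of these summits was among the strongest 4548 of the pooled list, which was made from the same replicates as the optimal list. The highest was at grl-24, with rank 4972 in the pooled list and 10977, 4671 and 4581 in replicates 1, 2 and 3. Next came ptr-18 with pooled rank 5667, ptr-1 with 5810, ptr-22 with 6182, wrt-2 with 6282 and grd-6 with 6514. In single replicates some of the 68 genes did have a summit among the strongest 4548. Examples were ptr-18 (rank 3104) and grl-11 (3890) in replicate 2, and wrt-6 (3985) and ptr-22 (4344) in replicate 3. Over all 30000 regions of each replicate, background regions included, a summit lay in the windows of 28, 37 and 38 ligand-like genes and of 22, 25 and 24 receptor-like genes (background 51.5%, 57.5% and 52.6%).

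When each optimal summit was given instead to the gene with the nearest start at any distance, 12 ligand-like and 10 receptor-like genes were bound (background 15.7%). This added grd-5, grl-8, ptr-18, ptr-21 and ptr-22, whose summits lay further upstream than 2000 bp, and left out grl-17, grd-4 and ptr-8, whose summits stood nearer to another start. A summit lay 4036 bp upstream of ptr-18, with a signal of 231 and support in all 3 replicates. At grl-8 there were 3 such summits, 3211, 3919 and 4839 bp upstream, with signals of 187, 201 and 137. The remaining summits were those of grd-5 (2907 bp, signal 138), ptr-21 (2561 and 2357 bp, signals of 158 and 120, overlapped by the same region in each replicate) and ptr-22 (3452 bp, signal 117).

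The motifs named above were then counted within 50 bp of the summits, beside all nuclear optimal sites and positions 500 bp downstream of them. The extended half-site CAAGGTCA was at 0 of the 25 sites, which allows a share of up to 12% when the limit is set at 3 counts, and at 1.08% of all sites. The short half-site AGGTCA was at 3 of 25 (12%), in the shared site of grd-3 and grd-10, the 3' UTR site of grl-4 and the site of ptc-3, and at 6.56% of all sites and 2.92% of positions beside them. GAGAGA stood at 6 of 25 (24.0%) and at 24.6% of all sites, CACGTG at 0 and at 5.88%, and TGATAA at 1 (4%) and at 9.15%. Within 100 bp, AGGTCA was at 7 of 25 (28%) and at 12.1% of all sites, and GAGAGA at 10 (40%) and at 38%. These are few counts, and no test was made. The median GC content of these windows was 39.6% at the 25 sites and 42.6% at all sites.

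The Grainyhead-type motif AACCGGTT was at 3 of the 25 sites (12%), against 49 of 4524 nuclear sites (1.08%) and 0.177% of positions beside them. Grainyhead factors are known for roles in epidermal barriers. The 3 sites were those of ptr-6, wrt-3 and the intron of wrt-1. In each the match lay more than 25 bp from the summit, so none was counted within 25 bp, and within 100 bp the count was again 3 (12%, against 1.70% of all sites). These are 3 counts among 6 motifs, the genes were singled out after their values were seen, and no test was made. A pair of these sequences is shown for this match, with the same marking by capitals.
ptr-6, chrII:5246916-5247016: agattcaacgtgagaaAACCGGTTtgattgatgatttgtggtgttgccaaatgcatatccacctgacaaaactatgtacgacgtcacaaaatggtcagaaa
wrt-1 intron, chrII:7531622-7531722: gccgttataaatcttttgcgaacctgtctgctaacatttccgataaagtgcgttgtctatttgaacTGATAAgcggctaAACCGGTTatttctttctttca

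**Figure D5:**
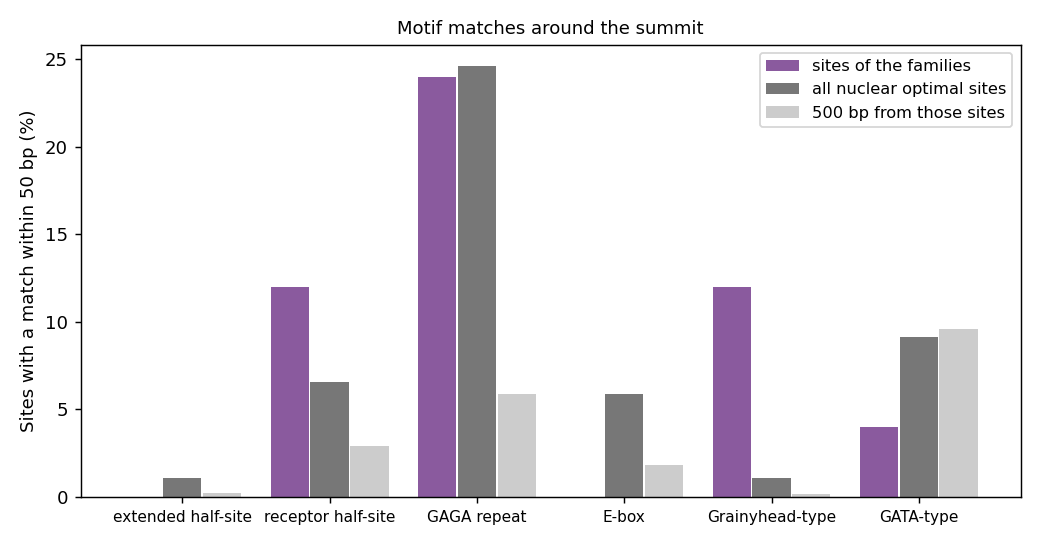
Percentage of sites with a match within 50 bp of the summit (vertical axis) for 6 motifs, at the 25 sites of the families (purple), at all 4524 nuclear optimal sites (dark grey) and 500 bp downstream of those (light grey). The Grainyhead-type motif is at 12% of the 25 sites and 1.08% of all sites, and the extended half-site and the E-box are at none of the 25.

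Other genes of the pathway were counted by the same rule: tra-1 (the GLI homologue), ncr-1, ncr-2 and scp-1 (proteins with a sterol-sensing domain outside the Patched family), hhat-1 and hhat-2 (homologues of the Hedgehog acyltransferase), the glypican genes gpn-1 and lon-2, and lrp-1 and dab-1 (endocytosis in the epidermis). Of these 10 genes 2 were bound (background 19.0%). At dab-1 there were 3 summits, the strongest in an intron (II, 8222657 to 8222990) with a signal of 405 and ranks of 905, 792 and 491. At ncr-2 an intronic summit (III, 8263620 to 8263753), nearer to the start of col-91, had a signal of 124 and ranks of 3932, 28681 and 2616.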

How the data were processed

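Regions were called by the authors for each replicate and for the pooled replicates against a control, and thresholded on reproducibility, per the deposited note, on ce11 (caller and version: not given in the sources used here). Each region has a signal given by the authors, of unstated scale, used here for ranks within a list only, and a deposited −log10 q-value, which was not used. The ce10 lists were not used. Gene models came from Ensembl release 115 for WBcel235, the same assembly. Summits are 1-based. Support meant overlap by at least 1 bp. The depth is unknown.

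Members and lists were chosen with earlier results of these data known. All bound members were named, with the 6 unbound ones of highest pooled rank. The one kind of test was an exact sign-flip permutation over the replicates' differences between ligand-like and receptor-like shares, run in the full window and in alternative settings. No test treated genes as replicates. Shares have 95% Wilson intervals. Alternatives were other windows, the nearest start, whole regions, stronger or pooled regions, support, replicates left out, other motif windows and, added after the data were seen, the summit 1 bp lower. Planted summits were recovered in 200 of 200 simulated windows. Python 3.11.15, pandas 2.3.3 and scipy 1.17.1 were used.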

Additional observations from a re-analysis of the deposited data

How the results depend on the processing

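The number of bound genes kept within 1.5 times its value of 12 ligand-like, 8 receptor-like and 20 genes in all under the promoter window, the nearest start, whole regions and the pooled list. It fell below that in the stronger part of the optimal list (6, 5 and 11 of 88, where all genes had 11.5%), with 50% overlap in all 3 replicates (4, 3 and 7), and, with 1 bp overlap in all 3, for receptor-like genes (5) and all genes (13). With 1000 or 500 bp upstream 10 ligand-like and 5 receptor-like genes were bound, 15 in all (background 15.6% and 13.5%), and only the receptor-like count fell below the limit. Next, 1 replicate was left out of the support count and support was required in both others. This gave 8 to 9 ligand-like, 5 to 6 receptor-like and 13 to 15 genes in all. The optimal list itself still came from all 3 replicates, so this added a filter and dropped no replicate from the list. The background was 13.2%, 13.5% and 13.6% without replicates 1, 2 and 3. The counts were lowest without replicate 1, where those of receptor-like genes (5) and of genes in all (13) also fell below the limit of 1.5 times. Stricter filters keep fewer regions for all genes too.

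The share of ligand-like minus that of receptor-like genes was -7.25 points and stayed below 0 under every alternative run. These runs reuse the same genes and largely the same sites, so their common sign is not separate support. With 1000 or 500 bp upstream the shares in the optimal list were almost equal, at 10 of 59 and 5 of 29 genes, a difference of -0.292. It was -2.05 in promoters, -14.1 by nearest start, -10.7 for whole regions, and -3.80 for the pooled list and with summits 1 bp lower. With support at 1 bp and at 50% overlap it was -3.68 and -3.57, and with 1 replicate left out of the support count -7.13 to -3.68. The cause of these moves was not tested. The replicates' mean of -8.36 was -2.51 with 0.5 times as many regions (below 0 in 2 of 3 replicates), -20.1 with 2 times as many and -8.94 to -7.19 without 1 replicate. With 1000 bp upstream it was -7.15 (SD 1.78, below 0 in 3 of 3 replicates), unlike the near-equal shares of the optimal list. The samples form 1 group, so there was no second group to pair them with. The sign-flip test was paired in another sense, as the difference between gene lists was taken within each replicate. Depth is unknown, so it cannot be said which absent sites deeper sequencing would show.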
